A study of Caenorhabditis elegans with 6 samples.

Results

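The expression of 10 genes of DNA replication licensing was followed by RNA sequencing in the anchor cells and the whole-body cells of Caenorhabditis elegans larvae. They were chosen by name as mcm-2, mcm-3, mcm-4, mcm-5, mcm-6, mcm-7, orc-1, orc-2, cdt-1 and pcn-1, and all 10 had a row among the 46748 gene rows of each of the 6 libraries. The anchor cell is a uterine cell of the larva that breaks through the basement membrane toward the vulval precursors. Both groups came from larvae labelled wild type, kept at 20 °C and taken in the middle of the third larval stage. The vulval precursor P6.p had then divided into 2 cells. Pronase was used at the same concentration for both groups, and the freed cells of both passed a 5 μm filter. Anchor cells gave 3 libraries and cells of the whole body gave 3, and the labels place no transgene or other allele in either group. The sources used here give neither the way the anchor cells were separated nor the number of animals behind a library, so the p-values measure the spread between these libraries, which may be technical. The whole-body group is a mixture of tissues and would itself contain anchor cells.

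Licensing prepares chromosomes to be copied before S phase begins. The origin recognition complex, which includes ORC-1 and ORC-2, marks the DNA, and CDT-1 together with CDC-6 then loads the MCM complex, a ring of the subunits MCM-2 to MCM-7 that later unwinds the DNA as the core of the replicative helicase. PCN-1 is PCNA, the sliding clamp that holds DNA polymerase on its template and also serves as a platform for the destruction of CDT-1 in S phase. The anchor cell is known as a cell arrested in the G1 phase at the time of invasion, whereas germ cells, vulval precursors and other lineages of the larva still divide.

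The libraries held 23279623 to 37501816 counts on genes. Genes with any count numbered 16990, 11508 and 11073 in anchor cell libraries 1, 2 and 3. They numbered 21246, 22216 and 17185 in whole-body libraries 1, 2 and 3. The part of this difference in the low or uneven counts of single genes in anchor cells was not tested. Of 10 anchor cell markers, 7 rose in anchor cells, where 2.01% of all tested genes did. The largest log2 fold change of these markers was 6.88, for the nuclear receptor gene nhr-67. The marker lin-3, at 1.73, fell short of the threshold given below. The marker zmp-1 overlapped between the groups, at means of 1.02 CPM in anchor cells and 0.66 CPM in whole-body cells. The marker him-4 went the other way, at -0.72, with overlapping groups. Anchor cell libraries were less alike than whole-body libraries: over all 11955 genes tested, the highest and lowest library of a group lay a median of 1.80 apart in anchor cells and 0.77 apart in whole-body cells on the log2(CPM + 0.5) scale, where CPM is the count relative to the library total after scaling by the trimmed mean of M values (TMM). Scaling matters to direction here, since the middle of the log2 fold changes of all tested genes lay at -0.12 with TMM and at -0.94 with scaling by library totals only.

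The licensing genes did not move as a block. The gene orc-1 fell to almost no counts in anchor cells, the MCM subunit genes had lower means there to different degrees, orc-2 was higher in each anchor cell library than in any whole-body library, and cdt-1 differed more between anchor cell libraries than between the groups. By edgeR's quasi-likelihood test, with Benjamini-Hochberg adjustment over all tested genes and a threshold of 0.05, 1 of the 10 passed in the downward direction, where 1.05% of all tested genes did, and none passed in the upward direction, where 2.01% did. At an unadjusted p under 0.05, 5 of the 10 were lower and 1 was higher, against 13.2% and 11.2% of all tested genes. DESeq2 called 4 of the 10 lower and none higher, against 10.6% and 5.37% of the genes it tested. Limma voom called 2 lower and 1 higher, against 9.47% and 3.45%, and edgeR without anchor cell library 1 called 4 lower and 1 higher, against 8.71% and 7.28%. The median log2 fold change of the 10 was -1.37, beside -0.12 over all tested genes. In 5 of the 10 every anchor cell library lay below every whole-body library, and in 1, orc-2, every anchor cell library lay above. Among all tested genes 23.2% and 12.4% were placed so. With libraries scaled by their totals alone, 8 members lay below and 1 above, against 35.5% and 4.37% of all tested genes. All 10 passed the filter on low counts, orc-1 through the whole-body libraries alone, so the filter fixed its direction. The gene orc-1 is part of each count of lower members above. In bulk samples like these, fewer cells that carry a transcript and less transcript per cell cannot be told apart.

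**Figure D1:**
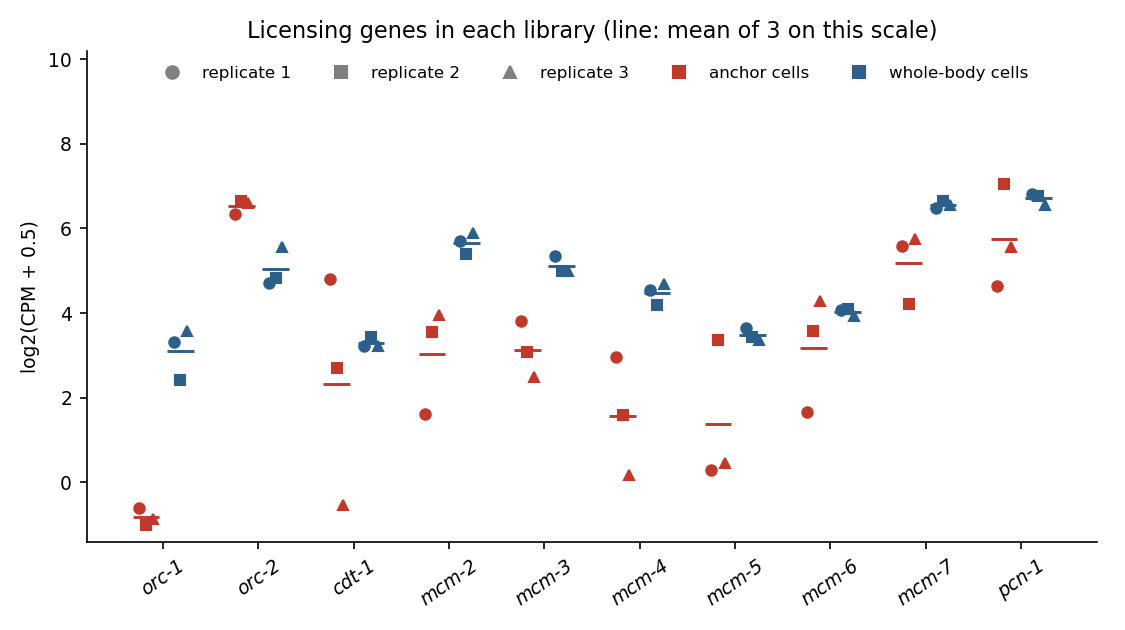
Level of each of the 10 genes in each library, as log2(CPM + 0.5); red symbols are anchor cell libraries, blue symbols whole-body libraries, the symbol shape gives the replicate number and the line is the mean of 3 libraries on this scale. The orc-1 points of the groups stand farthest apart, orc-2 is the gene with all red points above all blue points, and the red points of cdt-1 run from 0.193 to 27.5 CPM around a tight blue cluster.

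Within the origin recognition complex the 2 members had fold changes of opposite sign, and only orc-1 passed edgeR's threshold. The subunit genes orc-3, orc-4 and orc-5, outside the 10, had log2 fold changes of -1.63, -0.74 and 1.17. Their groups overlapped and none passed. The gene orc-1 encodes an ATPase subunit needed for loading the helicase (chromosome III, 10643129 to 10646058, WBcel235, gene WBGene00012650). It had 4, 0 and 1 counts in anchor cell libraries 1, 2 and 3 and 390, 301 and 323 counts in whole-body libraries 1, 2 and 3. As CPM these were 0.159, 0 and 0.0482 against 9.45, 4.84 and 11.4, so the groups did not overlap and the transcript was near the limit of detection in anchor cells. At the depth of these libraries 3 counts correspond to 0.119 to 0.153 CPM in anchor cells, and no count in anchor cell library 2 allows up to 0.153 CPM. Pooled over libraries, the whole-body level was 100.7 times the anchor cell level, with a 95% interval of 43.02 to 310.9 (exact binomial, counting error only). The fitted log2 fold change was -6.82 ± 1.42 (SE; edgeR adjusted p = 0.0347), a value that depends on the prior count because so few anchor cell counts exist. The call was lost, with the direction kept, when any library other than anchor cell library 1 was left out. The edgeR adjusted p was then 0.0581 and 0.0507 without anchor cell libraries 2 and 3, and 0.130, 0.0783 and 0.136 without whole-body libraries 1, 2 and 3. It was 0.0189 without anchor cell library 1.

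The gene orc-2 encodes another core subunit of the complex (chromosome II, 10873931 to 10877683, WBGene00003882). Its level was 80.8, 99.1 and 97.1 CPM in anchor cell libraries 1, 2 and 3 and 25.5, 28.1 and 47.0 CPM in whole-body libraries 1, 2 and 3. Each anchor cell library was above the highest whole-body library, and the anchor cell libraries differed from each other by at most 1.23-fold, the tightest agreement among the 10 genes in that group on the CPM scale. The log2 fold change was 1.46 ± 0.44 (SE), which missed the threshold (edgeR adjusted p = 0.0760). It passed without anchor cell library 1 (edgeR adjusted p = 0.0456) and with limma voom (limma adjusted p = 0.0403, and 0.0302 with sample weights). With libraries scaled by their totals alone it was 0.63, still above 0. Within a library, where scaling plays no part, the ratio of orc-1 to orc-2 per kilobase of exon was 0.00163, 0 and 0.000410 in anchor cell libraries 1, 2 and 3 and 0.306, 0.142 and 0.201 in whole-body libraries 1, 2 and 3.

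The loading factor gene cdt-1 was the least stable of the members in anchor cells (chromosome I, 3223160 to 3228104, WBGene00000413). Its counts were 691, 117 and 4 in anchor cell libraries 1, 2 and 3, that is 27.5, 5.99 and 0.193 CPM, with exact Poisson 95% intervals of 25.5 to 29.6, 4.95 to 7.17 and 0.0525 to 0.493 CPM that cover counting error only. The whole-body libraries held 8.86, 10.4 and 8.84 CPM. Anchor cell library 1 was thus above the whole-body range and libraries 2 and 3 below it, and the 3 intervals did not touch. The highest anchor cell library exceeded the lowest by 143-fold, against 1.17-fold in whole-body cells, and 99.0% of tested genes had a smaller range in anchor cells on the log2(CPM + 0.5) scale. The log2 fold change of 0.26 ± 1.19 (SE; edgeR adjusted p = 0.928) carries no direction: it was -1.60 without anchor cell library 1, and -0.41 with library totals.

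The MCM subunit genes had lower means in anchor cells, and none passed edgeR's threshold, where 1.05% of all tested genes passed as lower. Their log2 fold changes ran from -2.66 to -0.53 with a median of -1.72, and 4 of the 6 lay lower with groups that did not overlap, where 23.2% of all tested genes did. The genes mcm-2, mcm-3, mcm-4 and mcm-7 formed that set, and mcm-5 and mcm-6 overlapped.

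The gene mcm-2 encodes a subunit that also binds histones (chromosome II, 12001509 to 12006625, WBGene00003154). It stood at 2.55, 11.2 and 15.0 CPM in anchor cell libraries 1, 2 and 3 and at 52.0, 41.4 and 58.8 CPM in whole-body libraries 1, 2 and 3. The highest anchor cell library was below the lowest whole-body library. The log2 fold change was -2.40 ± 0.68 (SE; edgeR adjusted p = 0.0686). This is the MCM gene whose call depended most on the method, since it passed in 8 of the 16 alternatives, among them DESeq2 (DESeq2 adjusted p = 0.0345), limma voom (limma adjusted p = 0.0350) and edgeR without anchor cell library 1 (edgeR adjusted p = 0.0359).

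The gene mcm-3, whose product pairs with MCM-5 in the ring (chromosome V, 15056719 to 15059599, WBGene00003155), had 13.6, 7.93 and 5.15 CPM in anchor cell libraries 1, 2 and 3 against 40.0, 31.5 and 31.2 CPM in whole-body libraries 1, 2 and 3. Its difference was -1.95 ± 0.59 on the log2 scale (SE; edgeR adjusted p = 0.0772). The gene mcm-4, known by its mutants that fail to replicate DNA in postembryonic lineages (chromosome I, 2318291 to 2321817, WBGene00003156), had 7.25, 2.51 and 0.626 CPM against 22.9, 17.9 and 25.3 CPM in the same order. Its difference was -2.66 ± 0.90 (SE; edgeR adjusted p = 0.101). In both genes anchor cell library 1 was the highest of the anchor cell libraries and library 3 the lowest, the reverse of mcm-2. Without anchor cell library 1 both passed, mcm-3 at -2.39 (edgeR adjusted p = 0.0318) and mcm-4 at -3.81 (edgeR adjusted p = 0.0330).

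The gene mcm-7 was the most abundant MCM transcript per length in every library (chromosome V, 4347166 to 4349768, WBGene00003159). It had 47.3, 18.01 and 53.4 CPM in anchor cell libraries 1, 2 and 3 and 89.5, 99.2 and 93.9 CPM in whole-body libraries 1, 2 and 3. The groups were apart, with anchor cell library 2 the lowest, and the log2 fold change was -1.25 ± 0.49 (SE; edgeR adjusted p = 0.149).

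The other 2 subunit genes overlapped between groups because of single anchor cell libraries. The gene mcm-5 (chromosome III, 4288264 to 4291266, WBGene00003157) had 0.717 and 0.867 CPM in anchor cell libraries 1 and 3 but 9.87 CPM in library 2, which lay within the whole-body values of 12.1, 10.3 and 9.83 CPM. Its difference was -1.50 ± 1.09 on the log2 scale (SE; edgeR adjusted p = 0.450), and -3.75 without anchor cell library 2 (edgeR adjusted p = 0.0812). The gene mcm-6 (chromosome III, 9794367 to 9798644, WBGene00003158) had 2.67, 11.5 and 18.9 CPM in anchor cell libraries 1, 2 and 3 against 16.3, 16.6 and 14.8 CPM in whole-body libraries 1, 2 and 3, with anchor cell library 3 above all of the latter. Its difference was -0.53 ± 0.76 (SE; edgeR adjusted p = 0.731), and -0.063 without anchor cell library 1.

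**Figure D2:**
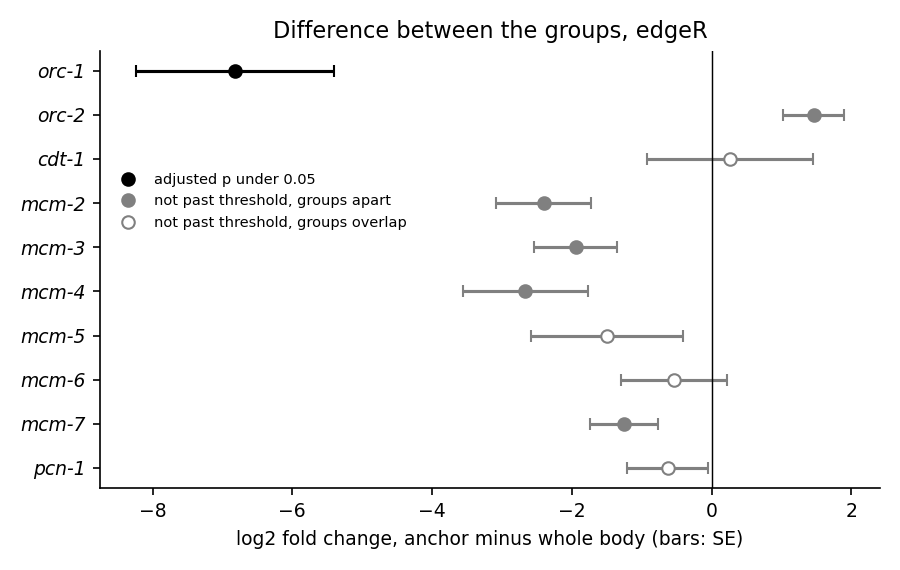
Log2 fold change of each gene, anchor cells minus whole-body cells, from edgeR, with bars of 1 SE; black marks an adjusted p under 0.05, filled grey a gene that missed it with groups that did not overlap, and open grey one with overlapping groups. Only orc-1 is black, at -6.82, and orc-2 at 1.46 is the filled grey point to the right of 0.

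The MCM subunits act as a ring with 1 copy of each, which invites a look at how evenly their transcripts were present within a library. The shares and ratios between subunits of a library use counts per kilobase of annotated exon and need no scaling between libraries, whereas the summed level does. The summed MCM level was 29.4, 23.7 and 36.9 CPM per kilobase in anchor cell libraries 1, 2 and 3 and 89.9, 84.4 and 90.2 CPM per kilobase in whole-body libraries 1, 2 and 3. In whole-body cells mcm-7 made up 40.7% to 48.0% of that sum and mcm-2 17.3% to 23.04%, while mcm-5 was the smallest in each library at 4.50% to 5.58%. The order of the subunits was mcm-7, mcm-2, mcm-3, mcm-4, mcm-6 and mcm-5 by mean. In anchor cells mcm-7 made up 65.8%, 31.0% and 59.0% in libraries 1, 2 and 3, and mcm-5 1.01%, 17.2% and 0.971%. The share of mcm-4 in anchor cells was 9.43%, 4.04% and 0.648%, and that of mcm-6 3.51%, 18.7% and 19.8%. The highest subunit exceeded the lowest by 65.2-fold, 7.67-fold and 91.0-fold in anchor cell libraries 1, 2 and 3, and by 7.28-fold, 9.49-fold and 9.44-fold in whole-body libraries 1, 2 and 3. Anchor cell libraries 1 and 3 thus held a less even set than any whole-body library, and library 2 one within the whole-body range. Those shares rest on 1860, 1192 and 1951 MCM counts in anchor cell libraries 1, 2 and 3 and on 6616 to 13479 in the whole-body libraries.

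**Figure D3:**
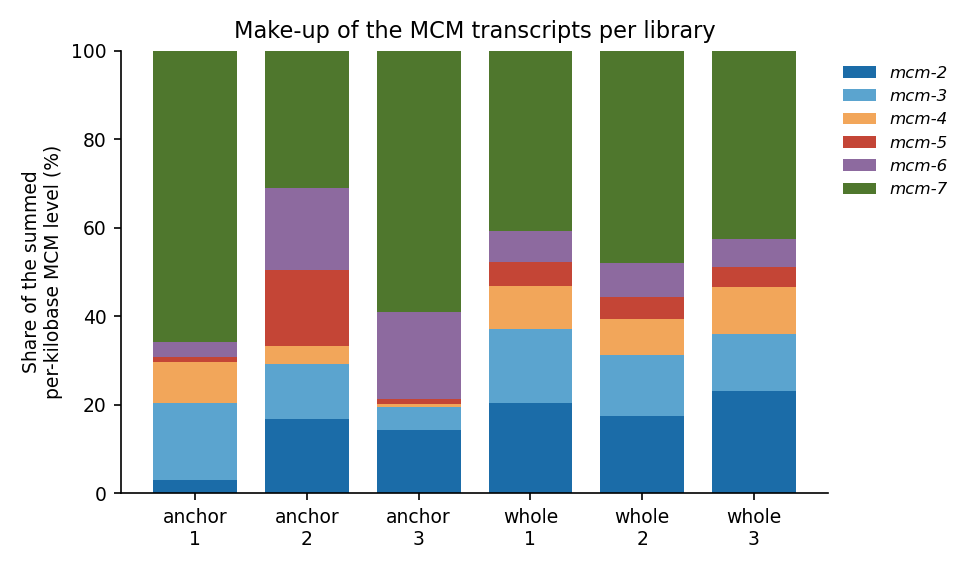
Make-up of the MCM transcripts, as each subunit's percent of the summed level per kilobase of exon in a library; each bar is 1 library, anchor cells on the left and whole-body cells on the right. The whole-body bars are alike, whereas mcm-5 takes 17.2% of anchor cell library 2 and 1.01% and 0.971% of the others.

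The clamp gene pcn-1 (chromosome IV, 4047937 to 4049448, WBGene00003955) was the member with the highest mean per length in both groups. In anchor cells that rank rested on library 2. In libraries 1 and 3 orc-2 was higher, at 48.5 against 24.5 and 58.3 against 47.3 CPM per kilobase. The gene pcn-1 had 24.3, 131 and 46.9 CPM in anchor cell libraries 1, 2 and 3 and 111, 109 and 93.6 CPM in whole-body libraries 1, 2 and 3. Anchor cell library 2 was above all whole-body libraries and libraries 1 and 3 below them, so the groups overlapped, and the difference was -0.63 ± 0.58 on the log2 scale (SE; edgeR adjusted p = 0.565). Without anchor cell library 2 it was -1.55, also short of the threshold. Relative to the mean MCM subunit of the same library, pcn-1 per kilobase was 5.01, 33.5 and 7.69 times as high in anchor cell libraries 1, 2 and 3 and 7.49, 7.78 and 6.28 times as high in whole-body libraries 1, 2 and 3. The same ratio for orc-2 was 9.91, 15.0 and 9.47 in anchor cells and 1.02, 1.20 and 1.88 in whole-body cells, where the groups did not overlap.

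The order of the levels per length differed between the groups. In whole-body cells it ran, as mean ± SD of 3 libraries, from pcn-1 (105 ± 9.55 CPM per kilobase) through mcm-7 (38.5 ± 1.98), orc-2 (20.2 ± 7.06), mcm-2 (17.9 ± 3.10), mcm-3 (12.8 ± 1.85), mcm-4 (8.41 ± 1.45), mcm-6 (6.15 ± 0.372), mcm-5 (4.45 ± 0.503) and orc-1 (4.25 ± 1.67) to cdt-1 (3.53 ± 0.333). The neighbours orc-2 and mcm-2, mcm-2 and mcm-3, mcm-5 and orc-1, and orc-1 and cdt-1 overlapped in their libraries, and the other neighbours did not. In anchor cells pcn-1 (68.2 ± 57.0) and orc-2 (55.5 ± 6.04) overlapped at the top, mcm-7 (16.2 ± 7.72) stood apart below them, and the 6 genes from mcm-6 (4.26 ± 3.15) down to mcm-4 (1.323 ± 1.305) each overlapped the next. The gene orc-1 had the lowest mean (0.0343 ± 0.0405), apart from its neighbour mcm-4 but not from cdt-1, whose lowest library had 0.0727 against 0.0790 in the highest of orc-1.

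The members were steady in whole-body cells and uneven in anchor cells, with the ORC genes as the exceptions. Between the highest and lowest library the median range of the 10 was 0.32 in whole-body cells and 2.38 in anchor cells on the log2(CPM + 0.5) scale, beside 0.77 and 1.80 over all tested genes. The range was wider in anchor cells for 8 of the 10, against 78.2% of all tested genes, so that share is close to the background. The libraries that were high differed by gene. Among the anchor cell libraries, library 1 was the highest for cdt-1, mcm-3, mcm-4 and orc-1, library 2 for mcm-5, orc-2 and pcn-1, and library 3 for mcm-2, mcm-6 and mcm-7. For orc-1 the small range in anchor cells reflects values near 0, where the added 0.5 CPM sets the scale.

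**Figure D4:**
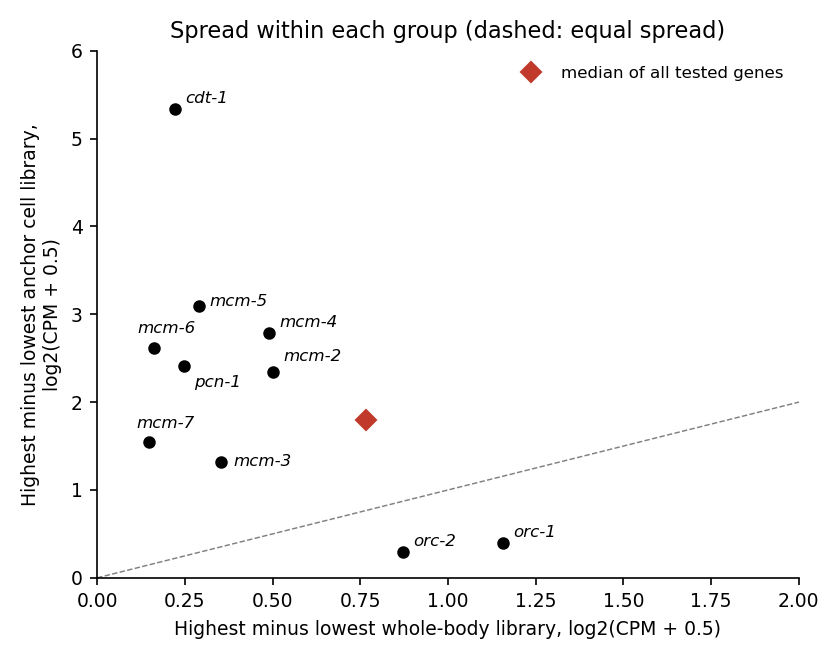
Spread of each gene within a group, as the highest minus the lowest library on the log2(CPM + 0.5) scale, in whole-body cells on the horizontal axis and anchor cells on the vertical axis (the axes differ in length); the dashed line marks equal spread and the diamond the medians of all tested genes, 0.77 and 1.80. The gene cdt-1 is at 5.34 on the vertical axis, and orc-1 and orc-2 are the points below the line.

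Beyond the members, 64 other replication genes were listed by role, 59 had a row and 57 passed the filter. None passed edgeR's test in either direction, where 1.05% of all tested genes passed as lower and 2.01% as higher. At an unadjusted p under 0.05, 5 were lower and 2 higher, against 13.2% and 11.2% of all tested genes. DESeq2 called 4 of the 54 it tested lower and none higher, against 10.6% and 5.37%, and limma voom called 4 of 57 lower and 1 higher, against 9.47% and 3.45%. The median log2 fold change of the 57 was -0.41. Of these, 16 had every anchor cell library below every whole-body library and 4 had every one above, where 23.2% and 12.4% of all tested genes were placed so.

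Among the remaining licensing genes, 3 of 5 were below 0 and the median was -0.74. The gene with the smallest adjusted p was gmn-1, which encodes geminin, the inhibitor of CDT1, with 0, 2 and 0 counts in anchor cells and 20, 33 and 16 in whole-body cells (edgeR adjusted p = 0.168). The loading factor gene cdc-6 had 22.3 ± 13.5 against 18.3 ± 3.75 CPM (SD, n = 3 each), and its difference of 0.29 ± 0.64 did not pass (SE; edgeR adjusted p = 0.833). In the origin firing and helicase list, 5 of 7 tested genes were below 0, with a median of -1.19. The GINS subunit gene psf-3 had no counts in the anchor cell libraries and 20, 57 and 11 in the whole-body libraries, at least 14.6-fold higher in whole-body cells against a floor of 3 counts over the anchor cell group (edgeR adjusted p = 0.0682). The list's median was the same with psf-3 at that bound. Like orc-1, the genes gmn-1 and psf-3 passed the filter on low counts through the whole-body libraries alone, so the filter fixed their direction. Both are counted among the genes below 0 and among the 5 lower at an unadjusted p under 0.05. They are also among those with every anchor cell library below every whole-body library. Other genes also needed whole-body libraries to pass, such as cdc-7, pri-1 and mcm-10, which are in that last count as well. Their counts in anchor cell libraries 1, 2 and 3 were 18, 0 and 0, then 34, 1 and 0, and then 2, 26 and 2.

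The polymerases and primase list had 7 of 9 genes below 0 and a median of -1.09. Its smallest adjusted p belonged to pole-1, the catalytic subunit gene of DNA polymerase epsilon, listed in the files as F33H2.5. It had 7.25, 3.02 and 0.193 CPM in anchor cell libraries 1, 2 and 3 against 26.4, 24.2 and 33.5 CPM in whole-body libraries 1, 2 and 3, a difference of -3.003 ± 1.03 (SE; edgeR adjusted p = 0.105). Its anchor cell libraries stood in the same order as those of cdt-1, mcm-3 and mcm-4. The 17 clamp loader and fork genes had a median of -0.25. There the nuclease gene dna-2 had the smallest adjusted p, with 8.84, 7.16 and 8.67 CPM in anchor cell libraries 1, 2 and 3 and 16.5, 14.03 and 26.7 CPM in whole-body libraries 1, 2 and 3 (edgeR adjusted p = 0.273). All 4 nucleotide supply genes were below 0 with a median of -0.88, and the ribonucleotide reductase gene rnr-1 averaged 15.8 ± 9.31 CPM in anchor cells and 36.5 ± 3.46 CPM in whole-body cells (SD of 3 libraries each; edgeR adjusted p = 0.233). All 4 tested genes of chromatin assembly were below 0 too, with a median of -1.39, and the ASF1 gene unc-85 averaged 1.58 ± 0.582 CPM in anchor cells and 10.1 ± 6.79 CPM in whole-body cells (SD of 3 libraries each; edgeR adjusted p = 0.115).

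The list of CDT-1 degradation and helicase unloading had a median above 0, at 0.50, with 8 of 11 genes above 0. The 3 below 0 were the genes of the CDT-1 ligase on the list, cul-4, ddb-1 and cdt-2, at -0.42, -0.28 and -0.72. The median above 0 thus came from the other genes of the list, among them cdc-48.1 and cdc-48.2. The unfoldase gene cdc-48.1, which helps take the helicase off DNA among many other tasks, had 566, 773 and 595 CPM in anchor cell libraries 1, 2 and 3 and 259, 255 and 246 CPM in whole-body libraries 1, 2 and 3. The difference was 1.35 ± 0.36 (SE; edgeR adjusted p = 0.0682). It has a close paralog in cdc-48.2, so its count is uncertain. The gene cdt-2, the substrate receptor that directs CDT-1 to destruction, averaged 18.2 ± 17.3 CPM in anchor cells and 30.0 ± 3.62 CPM in whole-body cells (SD of 3 libraries each; edgeR adjusted p = 0.605). Differences between these lists were not tested.

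**Figure D5:**
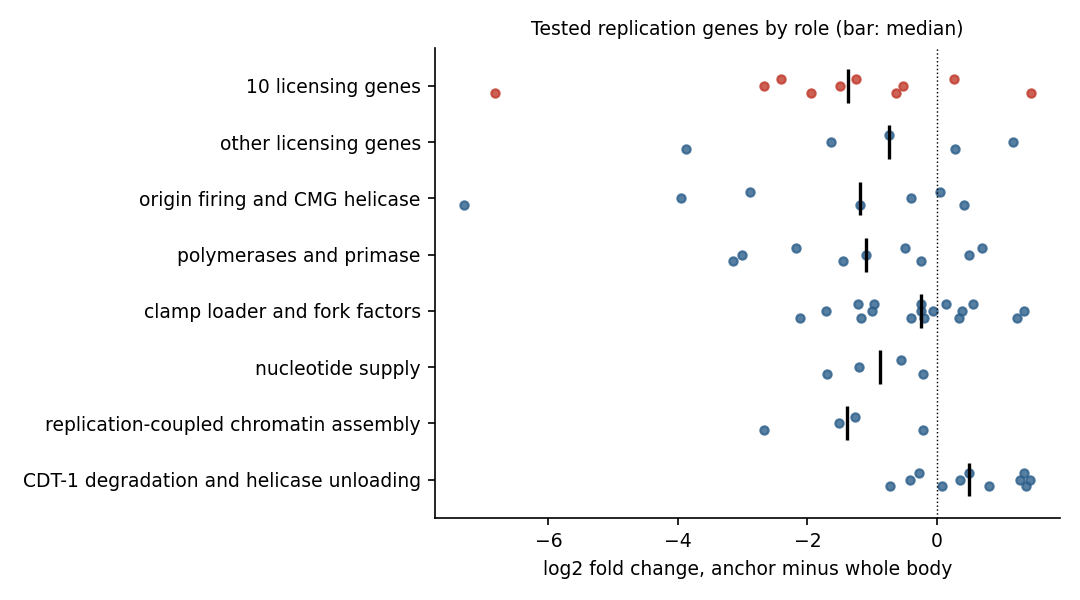
Log2 fold change, anchor cells minus whole-body cells, of the 10 licensing genes in red and of 57 other tested replication genes in blue, by role; each point is 1 gene, points are spread vertically for legibility and the bar is the list's median. The medians run from -1.39 for chromatin assembly to 0.50 for CDT-1 degradation and helicase unloading, and the leftmost points, orc-1 and psf-3, are fitted values of genes with few or no anchor cell counts.

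Among 4086 other genes with a gene-class symbol and, in whichever group was higher, a mean of 5 CPM or more, the closest to the mean standardised profile of the 10 members over the 6 libraries were perm-1, hat-1, mrpl-37, plk-3 and wago-2, with Pearson correlations of 0.997 to 0.994. These values describe 6 libraries in 2 groups. Being chosen for a profile that is lower in anchor cells, these genes had a direction fixed by the choice. The polo-like kinase gene plk-3, for example, had 0.324 ± 0.341 CPM in anchor cells and 15.8 ± 2.25 CPM in whole-body cells (SD of 3 libraries each).

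Markers of other cell types differed between the groups in the same libraries. Among all tested genes 1.05% fell and 2.01% rose past edgeR's threshold. Every anchor cell library lay below every whole-body library in 23.2% of all tested genes, and above in 12.4%. Of 18 germ line markers, a tissue of dividing cells in the larva, 4 fell, 15 were lower in each anchor cell library than in any whole-body library, and their median log2 fold change was -2.92. The 4 were the Argonaute genes prg-1 and csr-1, the translational repressor gene gld-1 and the synaptonemal complex gene syp-1. With 5, 16 and 1 counts in anchor cell libraries 1, 2 and 3, syp-1 needed whole-body libraries to pass the filter on low counts. So did others of the 15, such as him-3 and glh-4. The summed germ line level was 480 to 1347 CPM in anchor cells and 1157 to 1260 CPM in whole-body cells, and the genes cgh-1 and nos-3, the 2 of the 18 with a fold change above 0, averaged 665 and 205 CPM in anchor cells and 486 and 162 CPM in whole-body cells, although both were lower in anchor cell library 1 than in any whole-body library. No germ line marker was at 0 in all libraries of a group. Of 10 body wall muscle markers 3 fell, 8 were lower in each anchor cell library than in any whole-body library, and the median log2 fold change was -2.10, with a summed level of 6015 to 7966 CPM against 14772 to 20879 CPM. Of 10 neuron markers 1 rose, with sums of 1729 to 3317 CPM against 297 to 518 CPM. That marker, unc-119, stood at 506, 2604 and 2123 CPM in anchor cell libraries 1, 2 and 3, while whole-body cells averaged 3.31 ± 1.35 CPM (SD of 3 libraries). Its log2 fold change was 9.04, far from the next highest of the 10, snb-1 at 1.78. The source of the unc-119 counts was not tested. In the sums, unc-119 weighed heavily. It made up most of the sums of 3317 and 2981 CPM in anchor cell libraries 2 and 3. The 10 fold changes were all above 0 on the log2 scale, their median was 1.53, and 6 of the 10 were higher in each anchor cell library than in any whole-body library. Of 9 intestine markers 1 fell, none of 9 tested epidermis markers passed, and 1 of 7 tested markers of vulval precursors and seam cells, egl-18, rose. The part of these cell types in the levels of the licensing genes was not tested.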

How the data were processed

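The deposited files hold whole-number read counts for each gene name, not normalized, in 1 file per library, per the file contents. The submitters' processing notes name build WBcel235, the read tools FastQC and Trim Galore, the aligner STAR, the counter HTSeq, and DESeq2 1.30.1 in R 4.0.2; the sources used here give no strand setting, annotation release or other version. Per the labels' protocols, 8 to 10 ng of RNA was amplified with the Ovation RNA-Seq System V2. Without molecular identifiers, intervals and floors cover counting error only. Neither totals nor tests included the 5 rows that summarise unassigned reads; reads on no gene came to 0.807% to 3.88% of a library and reads on more than 1 gene to 0.303% to 0.677%.

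The groups were compared over all 6 libraries with edgeR 4.0.16 in R 4.3.3 (filterByExpr, TMM, robust quasi-likelihood F test, group as the only term, Benjamini-Hochberg over 11955 genes, threshold 0.05). CPM uses TMM totals. The SE is the absolute log2 fold change divided by the square root of F. On simulated counts for 11955 genes the same step recovered 5.88% of true 4-fold changes, 52.5% of 16-fold changes and 79.5% of 64-fold changes, and made 4 false calls. Exon lengths and coordinates came from the Ensembl annotation of WBcel235, matched to 99.0% of gene rows. In 5 members, 0.155% to 2.72% of exon bases overlap a gene on the opposite strand.

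Alternatives were other scalings (upper quartile, DESeq2 size factors, totals alone), DESeq2 1.42.0, limma 3.58.1 voom with and without sample weights, no filter, a filter of 10 CPM in 3 libraries, no rRNA or mitochondrial genes, the replicate number as a block, and each library left out. Libraries of a group differed by a chi-square per degree of freedom of 81.0 or more, so none repeats another. Of 64 other replication genes 59 were found, 10 of them under a sequence name through RefSeq. Named genes were all members, those past the threshold, the gene of smallest adjusted p per replication list and the 5 most alike in profile. The genes orc-3, orc-4, orc-5, cdc-6, cdc-7, cdt-2, mcm-10, pri-1 and the markers named singly were chosen after their values were seen. The members and lists were chosen with earlier results of these data known.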

Additional observations from a re-analysis of the deposited data

How the results depend on the processing

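The direction of the log2 fold change held under all 16 alternatives for mcm-2 to mcm-7, orc-2 and pcn-1, and under the 15 in which orc-1 could be tested, since orc-1 did not reach 10 CPM in 3 libraries. That of cdt-1 reversed in 5, to -0.41 with library totals, -1.41 with limma voom, -1.28 with limma voom and sample weights, -1.16 with the replicate block and -1.60 without anchor cell replicate 1, within a range of -1.60 to 0.84 over single libraries left out; the cause was not tested. The members called lower, 1 as reported, numbered 4 with DESeq2, 3 with library totals, and 2 with limma voom, with limma voom and sample weights, with no filter and with the replicate block. With the filter of 10 CPM in 3 libraries the 1 call was mcm-2, not orc-1. Leaving out libraries gave 0 to 4 lower, and 0 to 1 higher, the 4 and the 1 both without anchor cell replicate 1. Members called higher, none as reported, numbered 1, orc-2, with limma voom with or without sample weights. Other replication genes called lower, none as reported, numbered 4 with DESeq2, 4 with limma voom, 6 with limma voom and sample weights, 1 with no filter and 3 with the replicate block; limma voom with or without sample weights called 1 higher, and leaving out libraries gave 0 to 4 lower and 0 to 1 higher.

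Over all tested genes, 240 higher and 125 lower as reported, the counts were 798 and 1580 with DESeq2, 98 and 372 with library totals, 412 and 1132 with limma voom, 635 and 1311 with limma voom and sample weights, 603 and 372 with no filter, and 390 and 338 with the replicate block, and 197 were lower with the filter of 10 CPM in 3 libraries. Leaving out libraries gave 31 to 966 higher and 7 to 1156 lower. Of the calls 34.2% were lower, against 79.1% with library totals. Deviations from the group means correlated across genes at 0.053, -0.032 and -0.003 between same-numbered libraries, and at -0.036 to 0.041 between the others. With 3 libraries per group these values cannot exclude a shared preparation, and the labels name no shared batch. Values of orc-1, gmn-1 and psf-3 in anchor cells are imprecise, since counts were 0 to 4 per library. Anchor cell libraries held 27679710 to 30808026 counts on genes, more than the 23279623 of whole-body library 3. The causes of these changes were not tested.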
